A study of Mus musculus with 3 samples.

Results

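The enzymes that write, copy and remove DNA methylation were followed through the H3K36me3 landscape of Foxp3+ regulatory T (Treg) cells. The set comprised 7 genes, namely the maintenance methyltransferase Dnmt1 and its partner Uhrf1, the de novo methyltransferases Dnmt3a and Dnmt3b, and the dioxygenases Tet1, Tet2 and Tet3. Members were fixed by name, and their peaks were those whose midpoint lay in the annotated body of the gene, which gave 159 of the 120910 deposited peaks. All 7 genes had at least 20 RPKM summed over both libraries and so passed the minimum that left 9456 protein-coding genes for comparison, of 21951 annotated.

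CD3+CD4+Foxp3-YFP+ cells were sorted from the spleen and the large intestine (LI) of adult Foxp3Cre-YFP mice on the C57BL/6 background. These mice carry a Cre-YFP reporter driven from the Foxp3 locus in both tissues, and their genotype label names no Setd2 deletion. Cells of 7 male and 7 female mice were pooled for each tissue, and 1 µg of chromatin went into each immunoprecipitation. The remaining library, the input of splenic Treg chromatin, was not analysed here. With 1 library per tissue there was no replicate and therefore no test of any difference between tissues. The 95% intervals given below cover counting error only, and do not include the spread between mice, sorts or immunoprecipitations.

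DNMT1 copies methylation onto the new strand after replication, and UHRF1 recruits it by binding hemimethylated CG sites. DNMT3A and DNMT3B place methylation on unmethylated CG sites. Both carry a PWWP domain that binds methylated H3K36, and in this way H3K36me3, laid down by SETD2 over transcribed gene bodies, guides DNA methylation to those bodies. TET enzymes oxidise methylated cytosine, which is then lost through replication or base excision repair, and in Treg cells TET activity keeps the enhancers of Foxp3 free of methylation. H3K36me3 over the body of a gene follows its transcription, but neither RNA nor DNA methylation was measured in the samples described here.

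Several sequences show the kinds of DNA on which the results turn. Coordinates are mm10 (GRCm38.p6), sequences run 5′ to 3′ on the strand of the gene, and capitals mark CG dinucleotides, the substrate of these enzymes. The stretch of 250 bases before the internal start of Dnmt3a, at which a short isoform begins, lay in a gap between peaks. It held 15 CG dinucleotides, more than or as many as 74.6% of 32851 RefSeq starts, whose median was 6. The middle 200 bases of the strongest peaks of Dnmt3a, Dnmt1 and Tet3 show DNA under high H3K36me3, with 0, 3 and 2 CG dinucleotides. Over their whole length these 3 peaks held 1.69, 2.06 and 2.06 CG dinucleotides per 100 bp. Both peaks of Tet1 are shown whole because they were all the H3K36me3 called over this gene. The peak in its last exon held 13 CG dinucleotides and the intronic peak 5, and over all deposited peaks the median was 1.11 per 100 bp.
Dnmt3a before its internal start, chr12:3891494-3891743 (+): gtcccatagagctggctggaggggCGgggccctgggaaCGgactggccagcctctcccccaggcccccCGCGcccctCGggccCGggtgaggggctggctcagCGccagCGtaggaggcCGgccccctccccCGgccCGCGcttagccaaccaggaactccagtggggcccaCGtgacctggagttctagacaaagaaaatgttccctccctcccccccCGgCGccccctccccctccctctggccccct
Dnmt3a strongest peak, middle, chr12:3896222-3896421 (+): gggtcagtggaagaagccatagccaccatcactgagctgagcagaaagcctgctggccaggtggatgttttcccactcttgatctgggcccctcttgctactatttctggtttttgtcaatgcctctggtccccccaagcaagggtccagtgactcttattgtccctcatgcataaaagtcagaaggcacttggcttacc
Dnmt1 strongest peak, middle, chr9:20916366-20916565 (-): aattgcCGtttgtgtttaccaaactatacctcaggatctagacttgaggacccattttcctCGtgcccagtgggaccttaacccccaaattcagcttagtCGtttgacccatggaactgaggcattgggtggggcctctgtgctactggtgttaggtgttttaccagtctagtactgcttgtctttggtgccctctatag
Tet3 strongest peak, middle, chr6:83403471-83403670 (-): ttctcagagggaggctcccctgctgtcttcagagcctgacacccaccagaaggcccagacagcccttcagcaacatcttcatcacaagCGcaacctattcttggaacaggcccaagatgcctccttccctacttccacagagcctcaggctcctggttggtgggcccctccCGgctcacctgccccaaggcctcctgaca
Tet1 intronic peak, chr10:62822253-62822528 (-): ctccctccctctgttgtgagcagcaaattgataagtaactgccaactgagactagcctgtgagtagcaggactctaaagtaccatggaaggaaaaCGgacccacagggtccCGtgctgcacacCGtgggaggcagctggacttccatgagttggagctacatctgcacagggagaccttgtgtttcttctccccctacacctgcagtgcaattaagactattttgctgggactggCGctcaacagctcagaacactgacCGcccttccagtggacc
Tet1 peak in the last exon, chr10:62812766-62812973 (-): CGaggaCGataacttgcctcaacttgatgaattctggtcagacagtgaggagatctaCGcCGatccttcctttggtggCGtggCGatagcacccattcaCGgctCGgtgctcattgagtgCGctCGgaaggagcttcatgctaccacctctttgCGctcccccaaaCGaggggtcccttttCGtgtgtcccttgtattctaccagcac

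The deposited value of a peak is its mean coverage in RPKM, that is, reads scaled to feature length in kb and to library size. The step between values put the libraries at 29.6 M mapped reads for spleen and 38.1 M for LI, where 1 read was worth 1.69 and 1.31 RPKM in a 20-bp bin. The smallest peaks were therefore the least precise. All 8 markers of T and Treg cells had peaks, summing to 1886 RPKM in spleen and 1564 in LI. Ikzf2 alone held 1205 and 850.7 RPKM of these sums, and the other 7 markers held 681.0 and 713.2 RPKM. Of the B cell markers Ms4a1 and Ebf1 had none, and Cd79a, Cd79b and Pax5 summed to 60.2 RPKM in spleen and 53.4 in LI. Among myeloid markers 4 of 6 had none (Lyz2, Itgam, Adgre1 and Spi1), with sums of 29.7 and 31.3 RPKM. Among epithelial markers 5 of 7 had none (Krt8, Krt18, Krt20, Cdh1 and Cdx2), but Epcam held 25.3 RPKM in spleen and 47.2 in LI, and the list summed to 29.9 and 59.8 RPKM. Of the CD8 T and NK cell markers 4 of 5 had none (Cd8a, Ncr1, Klrb1c and Eomes), and Cd8b1 held 21.1 RPKM in spleen and 9.46 in LI. The part of other cell types in the values below was not tested.

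Averaged over the length of the gene body, with bases outside peaks at 0, the 7 enzymes spanned almost the full range of H3K36me3 in Treg cells. Dnmt1 was highest, at 16.2 RPKM in spleen (interval 15.6 to 16.9) and 21.02 in LI (20.4 to 21.7), which placed it at the 91.0th and 94.8th percentile of coding genes. Tet3 followed at 10.9 and 10.5 RPKM, and Dnmt3a at 8.39 and 8.08 RPKM. Uhrf1, at 4.54 and 4.60 RPKM, lay close to the median coding gene, which had 4.95 RPKM in spleen and 5.20 in LI. Tet2 had 2.98 and 3.31 RPKM and Dnmt3b 2.71 and 3.53 RPKM. The order of these last genes differed between the tissues, and their intervals overlapped in each. Tet1 was nearly bare, at 0.060 RPKM in spleen and 0.036 in LI, at or below the 1.74th percentile. Peaks covered 71.8% of the body of Dnmt1, 56.1% of Tet3, 51.0% of Dnmt3a, between 25.1% and 30.0% of Uhrf1, Dnmt3b and Tet2, and 0.463% of Tet1.

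**Figure D1:**
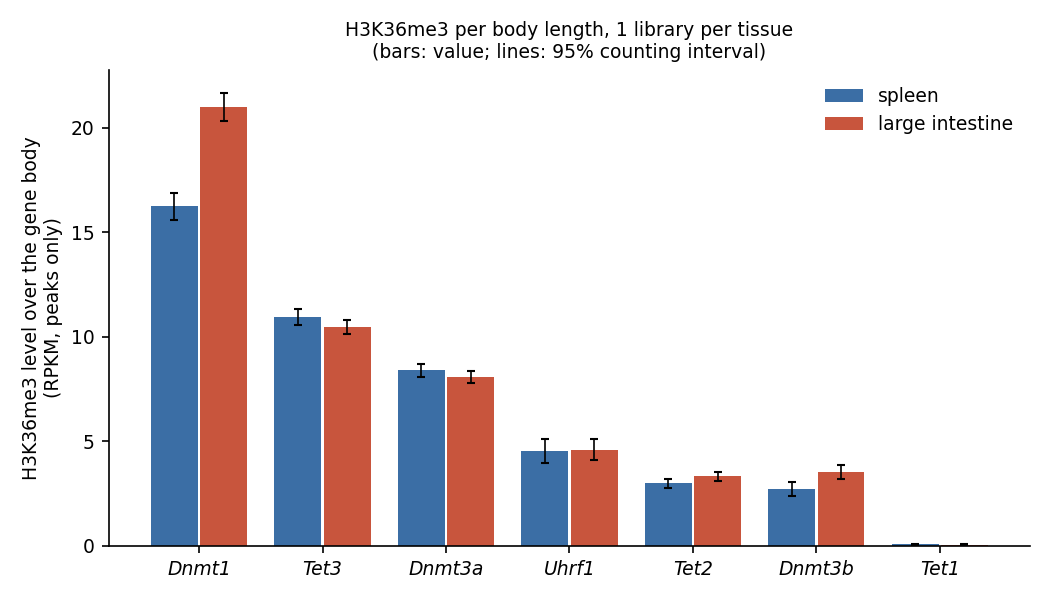
Mean H3K36me3 coverage over the gene body of each enzyme, in RPKM as deposited with bases outside peaks counted as 0, for the spleen library (blue) and the LI library (red); black lines are 95% counting intervals. Dnmt1 stands highest in both tissues, at 16.2 and 21.02 RPKM, and Tet1 is near 0.

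For the comparison between tissues, the values of all peaks in a gene body were summed, and the LI sum was scaled by the ratio of the column totals, a log2 difference of 0.046. The log2 ratio of LI over spleen, with 0.5 RPKM added to each sum, was above 0 for 4 of 7 enzymes (Dnmt1, Dnmt3b, Uhrf1 and Tet2) and below 0 for Tet1, Tet3 and Dnmt3a, beside 50.7% of all coding genes above 0. None was more than 1.5-fold higher in LI, a size reached by 9.02% of coding genes. Tet1 alone was more than 1.5-fold higher in spleen, as were 5.57% of coding genes, and that call rested on 2 short peaks. The counting interval lay above 0 for Dnmt1 and Dnmt3b, as for 17.5% of coding genes, and below 0 for Tet3, as for 14.9%. With 7 genes these counts are a description and were not tested. In pooled cells, fewer marked cells and less mark per cell cannot be told apart.

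**Figure D2:**
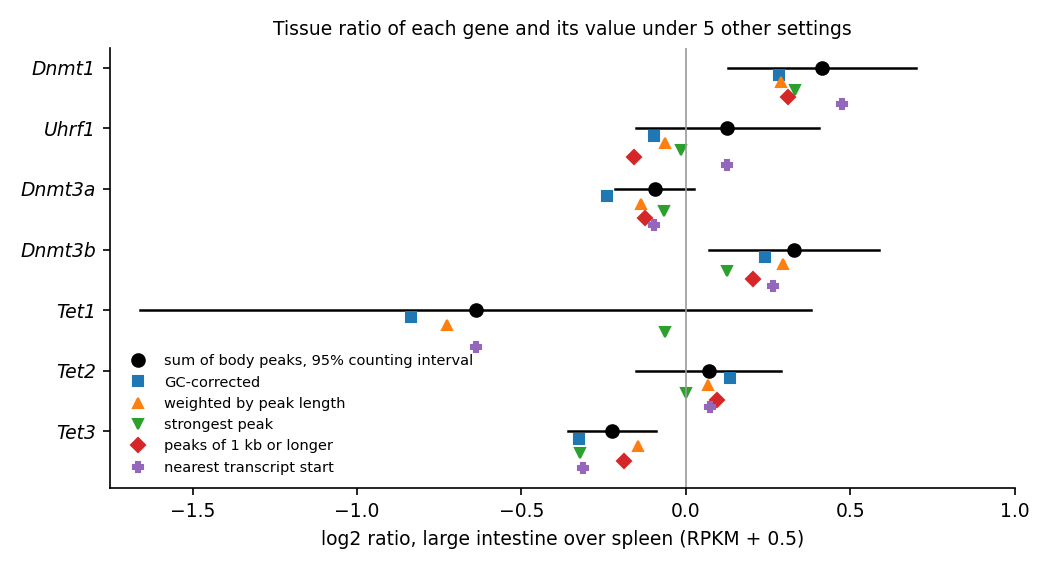
Log2 ratio of LI over spleen for each enzyme (x axis, on sums of RPKM plus 0.5), as the sum of all body peaks with its 95% counting interval (black) and as point values under 5 other settings (coloured symbols). Dnmt1 and Dnmt3b stay right of 0 and Tet3 left of it under each setting drawn, and Uhrf1 falls on both sides.

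Dnmt1 (ENSMUSG00000004099.16, chr9:20907209-20959888, minus strand) was the member most strongly marked and had the highest ratio of LI over spleen in the plain sum of peaks. With sums weighted by peak length the ratio was 0.289 for Dnmt1 and 0.295 for Dnmt3b. The 8 peaks of Dnmt1 summed to 101.8 RPKM in spleen and 140.1 in LI. The log2 ratio was 0.41 (interval 0.13 to 0.70), or 1.33-fold, at the 85.9th percentile of coding genes. Of the bases these peaks covered, 93.4% lay in 2 long domains that met almost end to end. The downstream one, chr9:20905597-20927334, was 21738 bp long, longer than the longest peak of 99.6% of coding genes or equal to it. It held 27 of the 39 exons of the principal transcript and ran beyond the annotated end of the gene. Its coverage was 25.7 RPKM in spleen and 33.6 in LI, a log2 ratio of 0.33 (interval 0.24 to 0.42). The neighbouring domain, chr9:20927460-20942564, of 15105 bp, held 20.9 and 26.2 RPKM, with a ratio of 0.28 (0.16 to 0.40). Both domains were thus higher in LI by similar amounts, with intervals that overlapped.

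Upstream of these domains Dnmt1 carried 6 peaks of 224 to 900 bp, and they diverged from each other. The peak of 900 bp next to the domains held 7.03 RPKM in spleen and 16.8 in LI, a log2 ratio of 1.15 (interval 0.41 to 1.90). A peak of 233 bp held 8.63 and 21.9 RPKM, but its interval of -0.072 to 2.57 included 0. The neighbouring peak of 230 bp held 14.5 RPKM in spleen and 11.9 in LI, the opposite order. In the plain sum the 6 short peaks held more than the domains, with 55.2 against 46.6 RPKM in spleen and 80.3 against 59.8 in LI, and weighting by peak length brought the ratio to 0.29 (0.22 to 0.36). No peak lay over a start of Dnmt1. Its first peak began 4.22 kb after the principal start and 11.1 kb after the most upstream one, against a median of 3.60 kb from the gene start over coding genes. The body was also cut into 10 equal parts, each carrying the means of the peaks over it, so changes within a peak are not resolved. The signal was 3.06 RPKM in spleen and 3.84 in LI in part 3. It was 25.7 and 33.6 RPKM in each of parts 8 to 10, which lie within the downstream domain. Coding genes averaged 9.55 and 10.4 RPKM in part 10. Peaks of Dnmt1 had a median GC content of 51.7%, beside 46.5% over all peaks, and after correction for the trend of the ratio with GC the value was 0.28 with an interval of -0.0025 to 0.57, which reached 0.

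Uhrf1 (ENSMUSG00000001228.14, chr17:56303321-56323486, plus strand), which brings DNMT1 to hemimethylated DNA, did not share a clear direction with its partner. Its 10 peaks summed to 139.8 RPKM in spleen and 157.5 in LI, a log2 ratio of 0.13 (interval -0.15 to 0.40), and 5 were higher in each tissue. The first peak lay 5.90 kb into the gene. The strongest, chr17:56314974-56316027, spanned exons 8 to 10 and held 19.9 RPKM in spleen and 20.3 in LI. A longer peak downstream, of 1684 bp, held 15.2 RPKM in spleen and 12.1 in LI, a log2 ratio of -0.36 (interval -0.82 to 0.10). Part 5 of its 10 parts averaged 4.81 RPKM in spleen and 6.72 in LI, and part 8 averaged 11.5 and 9.16 RPKM. The upstream peaks thus tended to be higher in LI and the downstream ones in spleen, but only as point values. Restricted to peaks of 1 kb or longer the ratio was -0.16, and after GC correction -0.097, so the direction of the sum was not settled.

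Dnmt3a (ENSMUSG00000020661.15, chr12:3806007-3914443, plus strand), the main de novo methyltransferase of mature T cells, had nearly equal sums. Its 44 peaks held 574.2 RPKM in spleen and 554.7 in LI, a log2 ratio of -0.095 (interval -0.21 to 0.024), and 19 of them were higher in LI. Its strongest peak, chr12:3894136-3898506, covered exons 7 to 12 and held 27.6 RPKM in spleen and 27.2 in LI. Further down, the peak at chr12:3901253-3903326 held 27.7 RPKM in spleen and 21.5 in LI, a log2 ratio of -0.40 (interval -0.72 to -0.087).

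The largest difference among its long peaks was at chr12:3881995-3883195, in an intron, with 16.0 RPKM in spleen and 10.2 in LI and a log2 ratio of -0.68 (interval -1.24 to -0.12). Other peaks went the opposite way. The first peak of the gene, chr12:3816718-3817885, held 8.69 and 11.6 RPKM (ratio 0.36, interval -0.29 to 1.00), and the peak at chr12:3872323-3875116 held 14.0 and 18.2 RPKM (0.33, -0.011 to 0.66). Tissue differences within Dnmt3a were therefore of mixed sign along its body. With GC correction the ratio of the whole gene was -0.24 (interval -0.36 to -0.12), and the interval then lay below 0. Of its peaks 3 had their midpoint within the antisense transcript Dnmt3aos, and chromatin reads cannot assign them to a strand. Without these the ratio was -0.072.

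H3K36me3 over Dnmt3a was uneven along the gene. The first peak lay 10.7 kb into the gene and part 1 of 10 averaged 0.11 RPKM in spleen and 0.14 in LI. The 34 peaks upstream of the internal start at 85.7 kb averaged 14.2 RPKM in spleen and 13.9 in LI over the bases they covered. The 10 peaks downstream averaged 21.4 and 20.2 RPKM. The first of these were still low, with 9.31 RPKM in spleen and 5.06 in LI and with 10.6 and 12.1 RPKM, and the higher level began with the strongest peak, 88.1 kb into the gene. Division at the start 79.4 kb into the gene gave 14.4 RPKM before it and 20.5 after it in spleen. The 13 peaks after that start include the same 10, so the similar contrast does not separate the starts. Coding genes also rose on average, from 1.10 RPKM in part 1 to 9.55 in part 10 in spleen. Whether the rise belongs to any start was not tested.

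Dnmt3b (ENSMUSG00000027478.15, chr2:153649450-153687730, plus strand), the de novo enzyme best known from early embryos, was among the enzymes with an interval above 0. Its 20 peaks summed to 168.6 RPKM in spleen and 218.5 in LI, a log2 ratio of 0.33 (interval 0.070 to 0.59), at the 81.7th percentile, and 14 of the peaks were higher in LI beside 49% of all peaks. Its signal was spread over many weak peaks, with a median of 9.26 RPKM in spleen and 11.2 in LI. The strongest, chr2:153674191-153674970, held 14.5 RPKM in spleen and 16.3 in LI (ratio 0.13, interval -0.52 to 0.77). The largest gaps were in short peaks and went both ways. A peak of 341 bp held 2.48 RPKM in spleen and 9.56 in LI (ratio 1.71, interval -0.035 to 3.46), and one of 228 bp held 12.01 and 3.70 RPKM (-1.61, -3.37 to 0.14). The intervals of just a pair of them lay above 0. The first peak of the gene, 485 bp long, held 3.43 RPKM in spleen and 11.4 in LI (ratio 1.56, interval 0.24 to 2.87), and a peak of 388 bp in the 3′ UTR held 5.62 and 15.4 RPKM (1.33, 0.11 to 2.56). The 3 peaks of 1 kb or longer were higher in LI by only 0.16 to 0.25 on the log2 scale, and their summed ratio of 0.20 had an interval of -0.13 to 0.54. After GC correction the ratio of the gene was 0.24 (-0.018 to 0.50), which included 0.

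The signal over Dnmt3b did not climb towards the end of the gene as that of coding genes did on average. It was highest in part 4 of 10, at 8.44 RPKM in spleen and 9.75 in LI, and was 1.02 and 1.82 RPKM in part 10. Nothing was called in the first 11.1 kb.

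**Figure D3:**
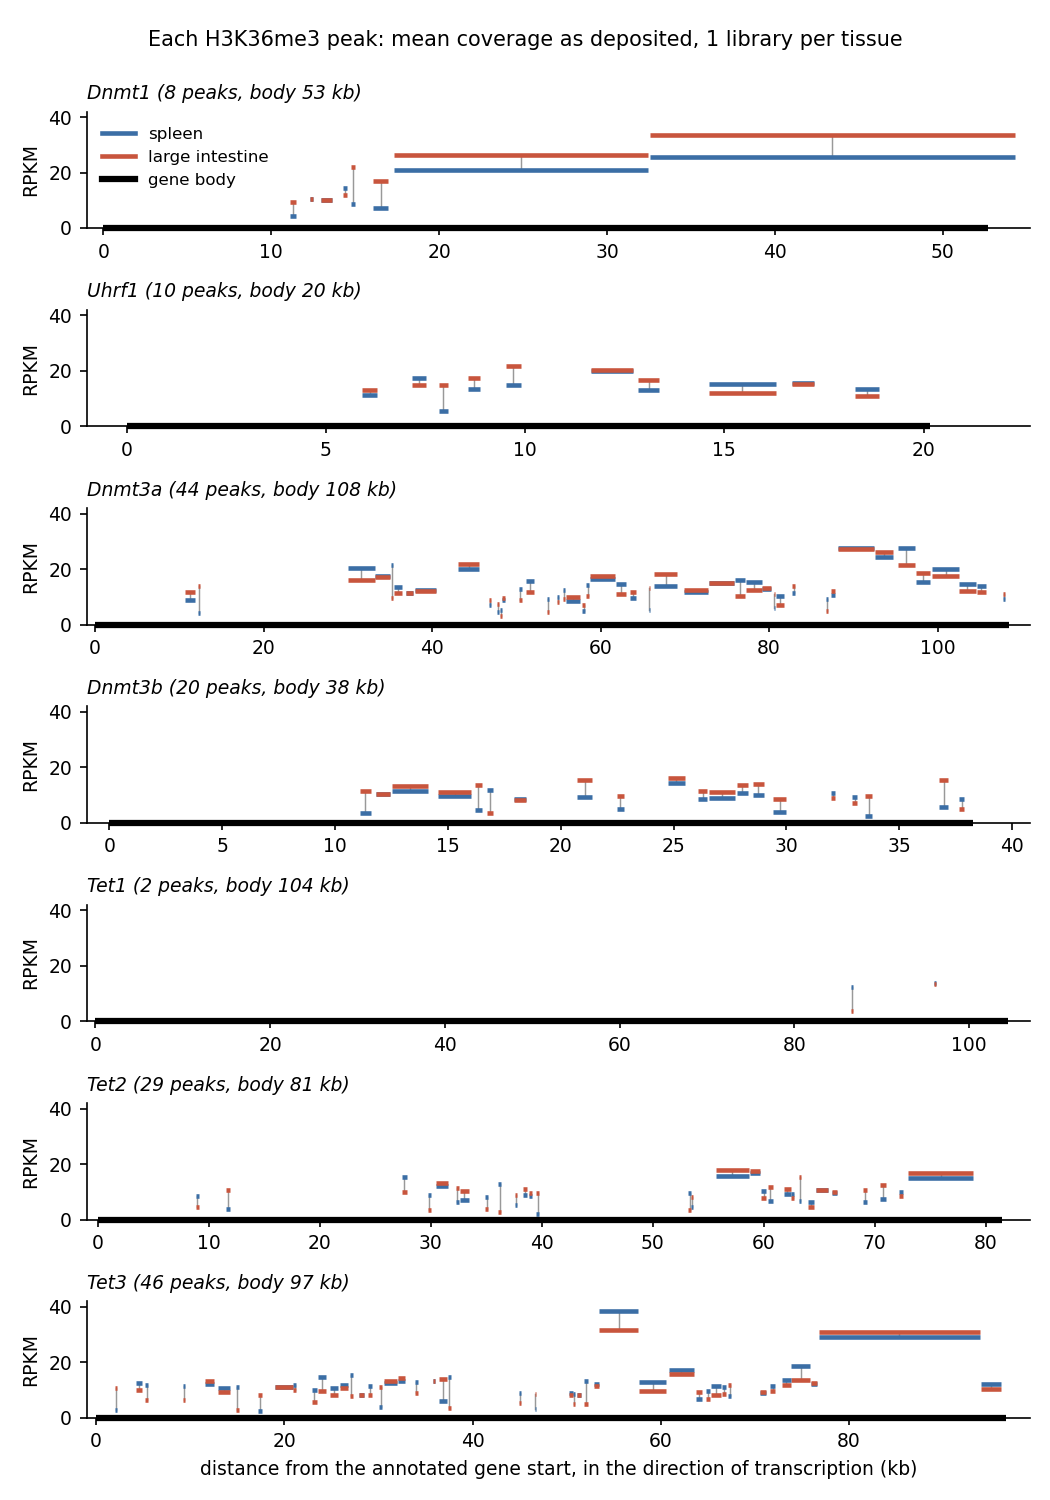
Every peak of the 7 genes drawn from its start to its end against the distance from the annotated gene start in kb (x axis), at the height of its mean coverage in RPKM as deposited (y axis), for spleen (blue) and LI (red); grey lines join both values of a peak and the black bar is the gene body. Dnmt1 is filled by 2 long domains that are higher in LI, and Tet1 has 2 peaks near its end. Near its 3′ end Tet3 has a long domain at nearly equal height, downstream of a taller peak that is higher in spleen.

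The Tet genes differed more from each other in level than between tissues. Tet1 (ENSMUSG00000047146.17, chr10:62804570-62908996, minus strand) had only the 2 peaks whose sequences are given above, and none in its first 86.5 kb. They summed to 26.1 RPKM in spleen and 17.1 in LI, and the log2 ratio of -0.64 had a wide interval of -1.66 to 0.38. The peak of 208 bp, in the last of the 13 exons of the principal transcript, was equal, with 13.6 RPKM in spleen and 13.5 in LI. The intronic peak of 276 bp held 12.4 RPKM in spleen and 3.63 in LI, a ratio of -1.68 (interval -3.28 to -0.087). The gene value therefore came from a single short peak. Of all peaks under 1 kb, 23.5% were past 2-fold in either direction. The share with a difference as large as that of this peak was not computed.

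Tet2 (ENSMUSG00000040943.12, chr3:133463679-133545139, minus strand) had 29 peaks that summed to 260.7 RPKM in spleen and 282.2 in LI, a log2 ratio of 0.069 (interval -0.15 to 0.29). Its strongest peak, chr3:133485464-133486379, lay in exon 3, which encodes much of the protein, and held 16.8 RPKM in spleen and 17.4 in LI. An adjoining peak of 2966 bp held 15.6 and 17.9 RPKM, and the longest, of 5883 bp near the 3′ end, 15.1 and 16.8 RPKM. Each of these 3 ratios lay at or slightly above 0, with an interval that included 0. The sum hid large short peaks of opposite sign. A peak of 225 bp held 13.0 RPKM in spleen and 2.78 in LI (ratio -2.07, interval -3.96 to -0.19), and another of 289 bp held 1.99 and 9.48 RPKM (1.96, -0.049 to 3.97). Parts 1, 3 and 6 of its 10 parts held no peak signal.

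Tet3 (ENSMUSG00000034832.15, chr6:83362373-83459084, minus strand) was higher in spleen. Its 46 peaks summed to 541.9 RPKM in spleen and 478.4 in LI, a log2 ratio of -0.23 (interval -0.36 to -0.091), or 1.17-fold higher in spleen, at the 22.4th percentile. Of its peaks 34 were higher in spleen and 12 in LI, beside 49% of all peaks higher in LI. The strongest peak of all 7 genes in spleen was in its exon 4, at chr6:83401487-83405653, with 38.5 RPKM in spleen and 31.7 in LI and a ratio of -0.32 (interval -0.51 to -0.14). Long intronic peaks downstream of it went the same way. The one at chr6:83398471-83401379 held 13.0 and 9.56 RPKM (ratio -0.46, interval -0.85 to -0.079), and the one at chr6:83383246-83385205 held 18.5 and 13.6 RPKM (-0.47, -0.87 to -0.078). The peak of 453 bp adjoining exon 4 on its upstream side held 12.4 and 11.6 RPKM (-0.13, -1.07 to 0.81).

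Towards the 3′ end of Tet3 the long peaks differed. The last peak, of 2080 bp in the 3′ UTR, held 12.3 RPKM in spleen and 10.4 in LI. Its ratio of -0.28 had the same direction, with an interval of -0.73 to 0.17 that included 0. A domain of 17051 bp, chr6:83365192-83382242, as long as or longer than the longest peak of 98.9% of coding genes, held 29.2 RPKM in spleen and 31.1 in LI, a ratio of 0.043 (interval -0.057 to 0.14) that did not overlap the interval of the exon 4 peak. Over the 10 parts of the gene the ratio was -0.29 in part 1, -0.089 in part 2, -0.36 in part 3, 0.12 in part 4, 0.028 in part 5, -0.35 in part 6, -0.27 in part 7 and -0.23 in part 8, but 0.044 in part 9 and 0.0092 in part 10. Each part carries the means of the peaks over it, so part 9 restates the domain and part 10 does so in large part. As point values, the lower level of Tet3 in LI lay in several parts upstream of the domain and in the last peak. The domain itself did not show it. A peak lay over an internal start of Tet3, in CG-rich DNA with 37 CG dinucleotides in 432 bp, and held 2.61 RPKM in spleen and 8.15 in LI (ratio 1.43, interval -0.12 to 2.99). Without the 3 peaks whose midpoint lay in the antisense gene B230319C09Rik the ratio of Tet3 was -0.21 (interval -0.35 to -0.070).

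Across the 159 peaks, 72 were higher in LI, or 45.3%, beside 49% of all deposited peaks. Their midpoints lay in introns for 139, in coding exons for 12 and in UTRs for the others. Of these UTR peaks, 3 lay in the last exon of Dnmt3a. Only 6 lay over the start of a coding transcript, 5 of them at internal starts of Dnmt3a. At the level of genes this made 2 of 7 members, and 21.5% of coding genes had a body peak over such a start. Ratios of short peaks spread more widely than those of long ones. The 115 peaks under 1 kb had an SD of 0.84 in their log2 ratios and 27 of them were past 2-fold, beside the 23.5% of such peaks in the whole table. The 44 peaks of 1 kb or longer had an SD of 0.26 and 0 were past 2-fold. Of these 44, 19 were higher in LI, beside 51.4% of all long peaks. Past 1.5-fold there were 0 higher in LI (5.51% of all long peaks) and 1 higher in spleen, in Dnmt3a (4.24%).

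**Figure D4:**
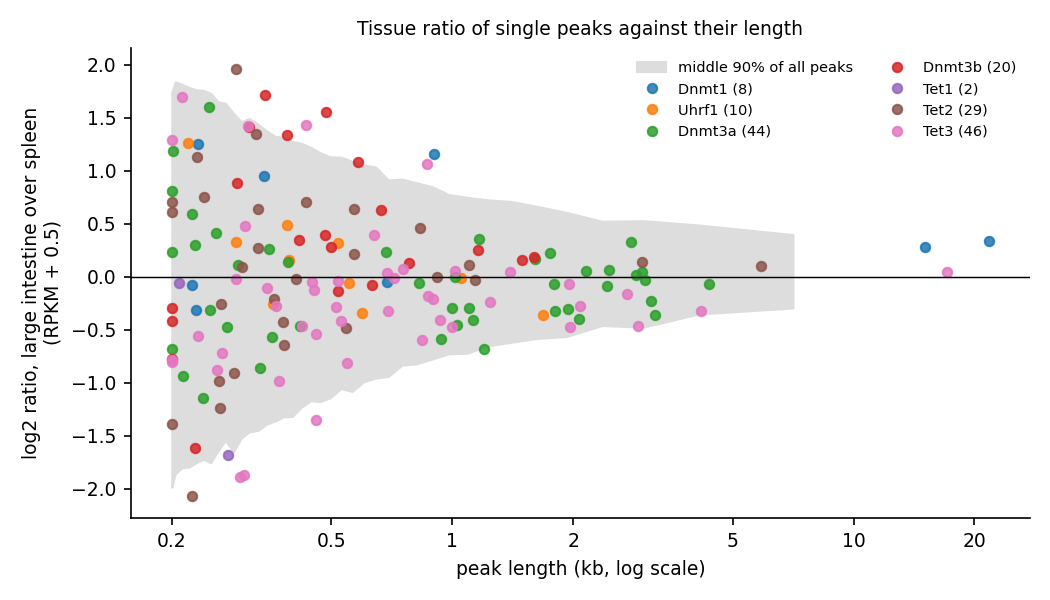
Log2 ratio of LI over spleen of each peak (y axis, RPKM plus 0.5) against peak length in kb (x axis, log scale), coloured by gene with the number of peaks in brackets; the grey band holds the middle 90% of all deposited peaks. Ratios of short peaks spread widely around 0 and those of 1 kb or longer lie between -0.68 and 0.36.

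The proteins around these enzymes were followed in 8 lists. Among 8 measured partners of DNMT1 and UHRF1, 3 were higher in LI, beside 50.7% of all coding genes, and 5 in spleen. The median log2 ratio was -0.12, against 0.0047 over coding genes. Hells, the remodelling ATPase that opens chromatin for maintenance methylation, held 44.1 RPKM in spleen and 24.2 in LI (ratio -0.89, interval -1.67 to -0.12). Cdca7, its activator, held 81.7 and 51.6 RPKM (-0.70, -1.14 to -0.27) with each of its 7 peaks favouring spleen. Ehmt1, an H3K9 methyltransferase with the highest sum of the list, was near equal at 615.4 and 599.0 RPKM. Lig1, the ligase that joins replicated DNA, was higher in LI, with 209.2 and 271.1 RPKM (0.33, 0.078 to 0.58). The interval of Dnmt1 overlapped those of Lig1, Ehmt2 (-0.12 to 0.35) and Trim28 (-0.16 to 0.29). It did not overlap those of the other partners measured, Hells and Cdca7 among them. The list median was -0.068 after GC correction and -0.057 with sums weighted by peak length.

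The list of DNA replication and proliferation genes, in which Dnmt1 and Uhrf1 are commonly counted, was higher in spleen for 13 of 14 genes measured. The other was higher in LI, as were 50.7% of all coding genes, and the median ratio was -0.22. The median was -0.094 after GC correction and -0.11 with sums weighted by peak length. Counting intervals lay below 0 for 5 and above 0 for 1, beside 14.9% and 17.5% of all coding genes. Top2a, the topoisomerase of dividing cells, held 200.9 RPKM in spleen and 118.8 in LI (ratio -0.80, interval -1.09 to -0.51). Rrm1, a subunit of ribonucleotide reductase, held 209.3 and 195.6 RPKM (-0.14, -0.35 to 0.067). As a point value, the positive ratio of Dnmt1 lay outside the range of this list, which ran from -0.80 to 0.19. Its interval overlapped those of several genes of the list, among them Mcm7 (0.19, 0.029 to 0.35).

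H3K36 methyltransferases, whose marks DNMT3A and DNMT3B read, were higher in spleen for 4 of 5 and in LI for 1, beside 50.7% of all coding genes higher in LI. Their median was -0.24, and it was -0.068 after GC correction and -0.14 with sums weighted by peak length. Nsd1, which makes H3K36me2, held 751.7 RPKM in spleen and 652.7 in LI (ratio -0.25, interval -0.36 to -0.14). An interval below 0 was held by 3 of the 5, beside 14.9% of all coding genes. Setd2, the writer of H3K36me3, was near equal at 636.1 and 613.6 RPKM (-0.097, -0.23 to 0.040). Among 11 genes of methyl-CpG readers and their families the median was -0.0040, and 0.30 with a minimum of 200 RPKM. Mbd2, a reader that recruits the NuRD complex, had the highest ratio of them, with 319.1 RPKM in spleen and 475.6 in LI (ratio 0.53, interval 0.35 to 0.71) and 33 of its 38 peaks higher in LI. Mbd5 was past 1.5-fold in the other direction on fewer than 50 RPKM.

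Downstream of TET oxidation, 7 of 9 base excision repair genes were higher in LI as point values, beside 50.7% of all coding genes. Their median of 0.14 was 0.091 after GC correction and 0.055 with a minimum of 200 RPKM. Only Neil1, a glycosylase, had an interval above 0, with 30.1 RPKM in spleen and 48.0 in LI (ratio 0.62, interval 0.076 to 1.17), and Polb, the repair polymerase with the highest sum, was equal at 214.7 and 222.2 RPKM (0.0037). Among TET partners and CXXC proteins the stress-induced Gadd45b held 22.4 and 45.1 RPKM (ratio 0.95, interval 0.39 to 1.51) and Gadd45g 15.8 and 36.2 RPKM (1.12, 0.15 to 2.10). Kdm2b, with the highest sum, held 779.7 and 880.3 RPKM (0.13, 0.025 to 0.23). Against these 3 intervals above 0 stood 2 below it. Kdm2a held 389.3 and 334.1 RPKM (-0.27, -0.46 to -0.074), and Ogt, the glycosyltransferase that binds TET proteins, 303.4 and 265.7 RPKM (-0.24, -0.41 to -0.065). The list median of 0.12 was over 6 measured genes of 9, since Cxxc4, Cxxc5 and Gadd45a had no peak, and it was 0.032 with GC correction and -0.24 with a minimum of 200 RPKM, so the list had no settled direction. Of 14 genes for methyl donor and 2-oxoglutarate metabolism 10 were higher in LI, beside 50.7% of all coding genes. Their median of 0.092 was -0.0044 with sums weighted by peak length. The counting interval lay above 0 for 1, Ahcy (0.46, 0.15 to 0.78), and below 0 for 2, Mthfd1 (-0.42, -0.62 to -0.23) and Shmt1. Shmt1, a serine hydroxymethyltransferase, held 81.2 RPKM in spleen and 48.9 in LI (ratio -0.77, interval -1.17 to -0.37), and Mtr, methionine synthase, was equal at 534.4 and 561.8 RPKM (0.027). In the family of other cytosine methyltransferases, Dnmt3l had no peak, Trdmt1 was under the minimum and Nsun2 held 94.2 and 89.1 RPKM (-0.12, -0.32 to 0.073).

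**Figure D5:**
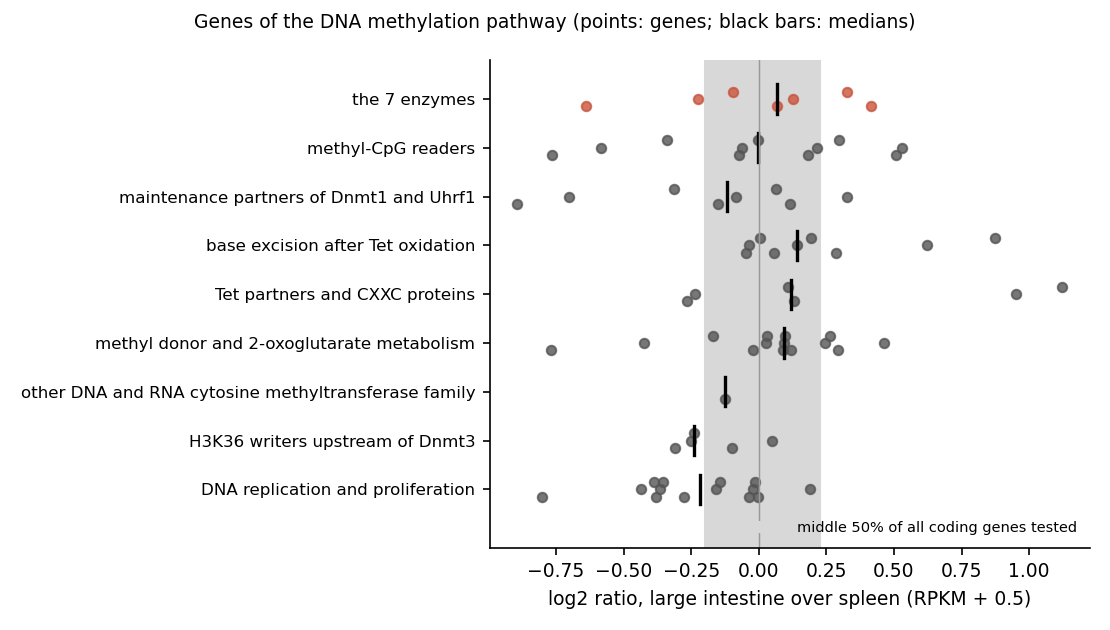
Log2 ratio of LI over spleen (x axis, on sums of RPKM plus 0.5) of the 7 enzymes (red) and of the measured genes of 8 lists (grey), with the median of each as a black bar; the shaded band holds the middle 50% of coding genes. Replication genes lie mostly left of 0, with a median of -0.22, and Dnmt1, at 0.41, is the rightmost of the enzymes.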

How the data were processed

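H3K36me3 ChIP-seq was performed on Treg cells sorted from spleen and LI, with single-end reads of 75 nt. Per the study's methods and the submitters' processing notes, reads were checked with FastQC and aligned to mm10 with Bowtie2, peaks were called in each tissue against input with MACS2 and merged with bedtools, and coverage was normalised and averaged over each peak. The authors deposited 1 value per peak and library in RPKM. The table is titled as raw counts, but its values are whole multiples of a fixed step over 20-bp bins, which gave the depth. Input and regions outside peaks were not used.

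Peaks were assigned by midpoint to GENCODE M21 gene bodies, and summed per gene; the study summed the peaks that its own annotation gave to a gene. Each column was scaled to its total over all peaks, and log2 ratios were taken after adding 0.5 RPKM, for protein-coding genes whose libraries together held 20 RPKM or more. No test was run, because each tissue had 1 library. The 95% intervals treat reads as Poisson counts and take a read to cover 200 bp, an assumed fragment length, and cover counting error only. Percentiles are among the 9456 coding genes. The calculation was tested on simulated data.

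Of the members, all 7 are given with their strongest peak and the 3 long peaks most different in each direction; other peaks named were chosen after their values were seen. Of each list the gene with the highest sum and every gene past 1.5-fold with at least 50 RPKM are named. Mbd5, Lig1, Ehmt2, Trim28, Mcm7, Setd2, Ahcy, Mthfd1, Kdm2a, Ogt and genes without a value were added afterwards. Members and lists were chosen with earlier results of these data known. Sequences are from RefSeq GRCm38.p6, in which all 7 members had a start. Python 3.11.15 was used. One of the marker genes is not reported here.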

Additional observations from a re-analysis of the deposited data

How the results depend on the processing

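Of 144 values recomputed under other settings, 134 stayed within the limits set for them and 10 moved, and no called value changed direction. Some settings could not move a gene ratio. Reads taken to cover 75 bp change only the interval, and leaving out peaks shared with another gene changed only Dnmt3a and Tet3. The limits for list medians were wide, and the median of TET partners counted as unmoved at -0.24 against 0.12. Dnmt1 (0.28 to 0.47), Dnmt3b (0.13 to 0.37) and Tet2 (0.0014 to 0.13) stayed above 0 under 10 alternatives each, and Dnmt3a (-0.24 to -0.050), Tet3 (-0.32 to -0.15) and, under 9, Tet1 (-0.84 to -0.062) below it. Uhrf1 was above 0 in 6 and below 0 in 4, and moved to -0.16 with peaks of 1 kb or longer. Dnmt3a moved to -0.24 with GC correction. The interval of Dnmt1 reached 0 with GC correction, that of Dnmt3b with GC correction, the strongest peak alone or long peaks alone, and that of Tet3 (-0.63 to 0.0047) with peaks assigned by nearest transcript start. That of Dnmt3a lay below 0 with GC correction, length weighting, long peaks alone or reads taken to cover 75 bp. Tet1 has no long peak and so no value there. Coding genes past 1.5-fold fell from 853 higher in LI and 527 in spleen to 207 and 124 with a minimum of 200 RPKM, for which fewer genes were eligible. Past 2-fold, 305 and 171 became 68 and 37 with that minimum and 469 and 306 with none. Members past 1.5-fold in spleen went from 1 to 0 with the minimum of 200, which Tet1 did not reach, and with a pseudocount of 5 RPKM, an alternative that, like the other recounts under scaling, weighting and GC correction, was chosen after seeing the data. Medians of the gene lists moved towards or across 0 under GC correction, length weighting or the minimum of 200 in the cases given with each list. No paired analysis was possible because each tissue had 1 library, and no replicate could be left out. Depth limited single short peaks most.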
